A study of Saccharomyces cerevisiae with 12 samples.

Results

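HXT1 to HXT7 are 7 genes of budding yeast that encode glucose and fructose carriers of the plasma membrane. They were taken as the rows of HXT1 (YHR094C), HXT2 (YMR011W), HXT3 (YDR345C), HXT4 (YHR092C), HXT5 (YHR096C), HXT6 (YDR343C) and HXT7 (YDR342C) in the RNA-seq tables, 7 of the 6612 features listed there. The estimated counts of HXT6 and HXT7 were added together, so that the members were tested as 6 units.

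RNA-seq compared a yeast strain labelled as lacking the dihydrouridine synthases (DUS KO, 3 libraries) with WT, the laboratory strain BY4741 (3 libraries). DUS KO is described as the quadruple mutant dus1Δ dus2Δ dus3Δ dus4Δ, made by a cross between strains that each carried a pair of the deletions, sporulation and tetrad dissection. The labels give harvest in mid-log phase, the study's methods give cultures at OD 6, and the growth medium and its sugar are not given in the sources used here. The libraries came from poly(A)+ RNA and were made alongside D-seq libraries, without borohydride and with full-length cDNA. For each feature the deposited tables give estimated counts and TPM, a transcript level normalized by length and library total.

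Hexoses enter yeast cells by facilitated diffusion, and the carriers differ in affinity. Hxt1 and Hxt3 are low-affinity carriers that serve cells in abundant glucose, Hxt2, Hxt4, Hxt6 and Hxt7 are carriers of moderate to high affinity that serve cells in scarce glucose, and Hxt5 is linked to slow growth. Their transcription is set by the glucose sensors Snf3 and Rgt2, which act through Mth1 and Std1 on the repressor Rgt1, and by glucose repression through Snf1 and Mig1.

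Estimated counts summed to 5500084, 2856581 and 656162 in the DUS KO libraries and to 4759874, 5652837 and 4336794 in the WT libraries, so that DUS KO replicate 3 was the shallowest. The labels do not say that the replicates were separate cultures, and the p-values below measure only the spread between these libraries, which may be technical. DUS1 and DUS4 had no counts in any DUS KO library, and DUS2 had 0, 0 and 3 counts in DUS KO, against 204, 112 and 126 in WT. DUS3 had 64.1, 52.2 and 6.49 estimated counts in DUS KO, which were not whole numbers, against 129, 82 and 112 in WT. The groups overlapped in CPM and the adjusted p from edgeR was 0.576. At this gene, as the reads were counted, the 3 DUS KO libraries thus went against their dus3Δ label. The paper reports that the genotype of the quadruple mutant was checked by PCR. It also reports dihydrouridine in mRNA from WT but not from DUS KO. Whether the fractional DUS3 counts came from reads shared with another feature was not examined. MET17, a gene that BY4741 is known to lack, had 618, 290 and 37 counts in DUS KO and 0, 92 and 155 in WT, so that WT replicates 2 and 3 went against their strain label at this gene. LYS2 had 2, 0 and 1 counts in DUS KO and 148, 330 and 86 in WT. LYS2, DUS1, DUS2 and DUS4 passed the adjusted threshold and MET17 did not (adjusted p = 0.684 from edgeR), and the part of these genes in the results was not tested.

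The members lie in 2 clusters and at 1 separate locus, each as a single coding exon. In the R64 reference genome of yeast (RefSeq annotation), HXT4, HXT1 and HXT5 lie in this order on the minus strand of chromosome VIII, at 287081 to 288811, 290913 to 292625 and 294669 to 296447. HXT7, HXT6 and HXT3 lie in this order on the minus strand of chromosome IV, at 1154216 to 1155928, 1159608 to 1161320 and 1162957 to 1164660. HXT2 lies on the plus strand of chromosome XIII, at 288079 to 289704. The deposited lengths of all 7 features equal the coding lengths in that annotation. They span 1626 nt in HXT2, 1704 nt in HXT3, 1713 nt in HXT1, HXT6 and HXT7, 1731 nt in HXT4 and 1779 nt in HXT5.

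HXT6 and HXT7 are near copies of each other. Their coding sequences differ at 3 of 1713 bases, all of them near the stop codon. Counted from the first base of the start codon, with the HXT6 base first, the changes are T1632C, G1666A and T1677C, of which G1666A changes the encoded amino acid, so that 1 of 570 residues differs. The last 100 nt of both genes and of HXT3 are printed here because they hold the bases that separate the reads of HXT6 and HXT7. Capitals mark the 3 positions at which HXT6 and HXT7 differ and, in HXT3, the bases at the same distances from the end.
HXT6, chrIV:1159608-1159707, minus strand: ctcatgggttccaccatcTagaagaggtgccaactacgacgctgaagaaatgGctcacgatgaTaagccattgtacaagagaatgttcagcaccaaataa
HXT7, chrIV:1154216-1154315, minus strand: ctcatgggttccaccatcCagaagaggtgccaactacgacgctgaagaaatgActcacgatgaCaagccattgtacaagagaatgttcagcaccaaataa
HXT3, chrIV:1162957-1163056, minus strand: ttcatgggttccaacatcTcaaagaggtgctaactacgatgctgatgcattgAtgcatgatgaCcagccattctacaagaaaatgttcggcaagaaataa

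Reads from most of either gene cannot be assigned to one of them. Of the 1664 windows of 50 nt in the HXT6 coding sequence, 82, or 4.93%, hold a base that tells HXT6 from HXT7. The identity between the genes continues for 84 nt upstream of the start codon. HXT6 was given 1.47%, 1.85% and 20.0% of the estimated counts of HXT6 and HXT7 together in DUS KO, and 2.38%, 8.90% and 6.08% in WT. The highest share came from the library with the fewest counts, in which HXT6 had 18.7 estimated counts and HXT7 had 74.6. The separate values of HXT6 and HXT7 are therefore uncertain, and the sum of both is reported.

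The other members share shorter runs. Besides the HXT6 and HXT7 pair, which is identical at 99.8% of aligned bases, the identity of the coding sequences was 83.3% for HXT1 and HXT3, 83.2% for HXT4 and HXT6, and 83.0% for HXT3 and HXT7. It was lowest, at 71.5%, for HXT2 and HXT5. Of the 50-nt windows of each member, 14.9% in HXT3, 4.99% in HXT1, 4.05% in HXT5 and 2.50% in HXT4 also occur in another feature, and in HXT6 and HXT7 13.0% occur in a feature other than their copy. For HXT2 the number was 0 of 1577 windows. The longest run between HXT3 and the near copies on the same chromosome and the longest run between the neighbours HXT1 and HXT5 show what such a stretch looks like.
HXT3, chrIV:1163167-1163315, minus strand, also in HXT7 at chrIV:1154426-1154574: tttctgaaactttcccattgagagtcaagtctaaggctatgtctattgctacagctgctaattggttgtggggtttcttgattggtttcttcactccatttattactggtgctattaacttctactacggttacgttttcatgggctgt
HXT1, chrVIII:291301-291419, minus strand, also in HXT5 at chrVIII:295060-295178: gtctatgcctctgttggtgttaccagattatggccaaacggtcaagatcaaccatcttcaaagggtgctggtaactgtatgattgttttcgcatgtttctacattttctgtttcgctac

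**Figure D1:**
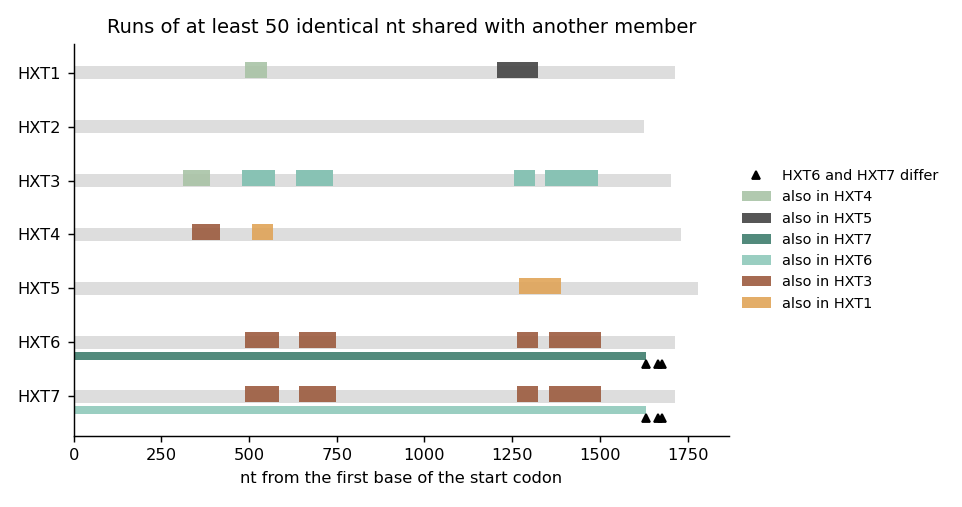
Coding sequence of each member (grey bar, in nt from the first base of the start codon) with the runs of at least 50 nt that are identical in another member (coloured by that member). Runs of HXT3 coloured for HXT6 are also in HXT7; triangles mark the 3 bases at which HXT6 and HXT7 differ, and HXT2 has no such run.

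A deposited count is a whole number where no read was divided between features. HXT2 had a whole count in 6 of 6 libraries. The summed counts of the other 6 members were whole within 0.02 of a read in 6 of 6 libraries. No smaller combination of those 6 was whole in more than 1 library. The fractions of reads thus added up to whole reads within these 6 genes. Together the 7 genes had 5772, 2685 and 629 counts in DUS KO, and 5141, 5328 and 6562 in WT.

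The most abundant member in every library was HXT3. It had 106, 71.0 and 95.5 TPM in DUS KO, against 101, 86.4 and 130 TPM in WT, and held 53.2% ± 4.73 of the summed TPM of HXT1 to HXT7 in DUS KO and 57.3% ± 1.79 in WT (SD, n = 3 each). By TPM it ranked between 374 and 559 among the 6612 features. HXT3 exceeded the next member in 6 of 6 libraries, and the ranges did not overlap.

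HXT1, the other low-affinity carrier, stood far below it. HXT1 had 29.8, 23.3 and 23.1 TPM in DUS KO and 28.6, 19.5 and 22.0 TPM in WT. The ratio of HXT3 to HXT1 was 3.55, 3.04 and 4.13 in DUS KO and 3.53, 4.43 and 5.91 in WT. Its share of the summed TPM was 15.0% ± 1.01 in DUS KO and 13.0% ± 3.59 in WT (SD, n = 3 each).

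HXT6 and HXT7 together reached the level of HXT1. The sum was 32.4, 28.5 and 24.6 TPM in DUS KO, against 13.2, 17.4 and 39.4 TPM in WT. The WT libraries spread over a 2.98-fold range, the DUS KO libraries over a 1.32-fold range, and the groups overlapped. WT replicate 3 was the highest of the 6 libraries and WT replicate 1 the lowest. The share of the summed TPM was 16.9% ± 2.25 in DUS KO and 12.0% ± 4.55 in WT (SD, n = 3 each).

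HXT2 and HXT4 followed. HXT2 had 16.1, 15.3 and 15.3 TPM in DUS KO, against 22.8, 12.2 and 25.7 TPM in WT. HXT4 had 8.73, 9.64 and 7.57 TPM in DUS KO, against 7.32, 12.5 and 17.4 TPM in WT. For both genes the DUS KO libraries lay within the range of the WT libraries.

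HXT5 was the least abundant unit in every library. It had 1.55, 0.440 and 1.05 TPM in DUS KO and 0.375, 0.0542 and 1.07 TPM in WT. Its estimated counts were 48.1, 8.35 and 4.13 in DUS KO and 11.7, 2.04 and 31.2 in WT, of which none was whole, so that its level rests on few reads and on their division among members. It shares 70 of its 1730 windows of 50 nt with HXT1.

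**Figure D2:**
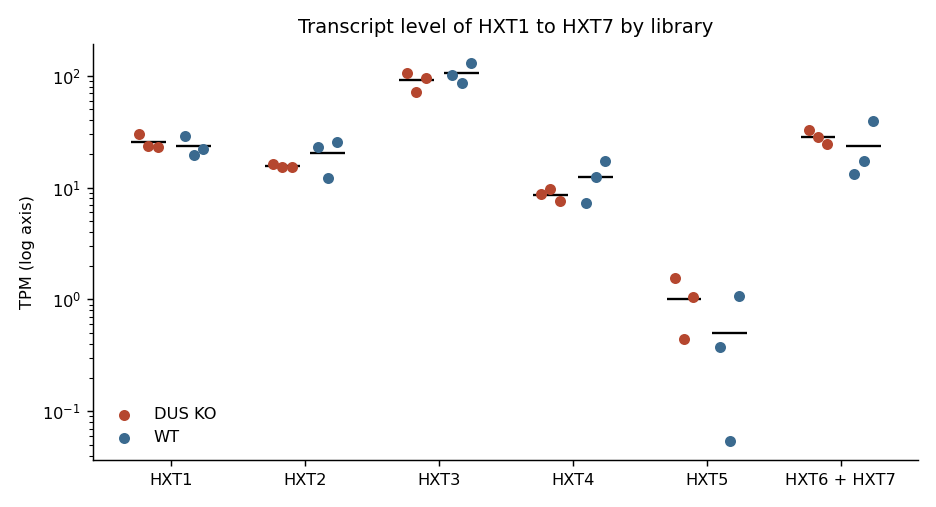
TPM (log axis) of the 6 units in each library, DUS KO at the left and WT at the right of each pair; points are replicates 1 to 3 in this order and lines are means. HXT3 is the highest and HXT5 the lowest unit in all 6 libraries, and WT points of HXT6 + HXT7 spread from 13.2 to 39.4 TPM.

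The order by mean TPM was HXT3, HXT6 with HXT7, HXT1, HXT2, HXT4 and HXT5 in DUS KO. In WT it was HXT3, HXT1, HXT6 with HXT7, HXT2, HXT4 and HXT5. The neighbours HXT6 with HXT7 and HXT1 did not differ beyond their spread in DUS KO, where their means were 28.5 ± 3.88 and 25.4 ± 3.80 TPM (SD, n = 3 each), although the sum was above HXT1 in 3 of 3 libraries. In WT the ranges of all neighbours between HXT1 and HXT4 overlapped. HXT1 and the sum of HXT6 and HXT7 had WT means of 23.4 ± 4.71 and 23.3 ± 14.1 TPM (SD, n = 3 each).

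Low-affinity carriers made up the larger part of the pool in every library. The log2 ratio of HXT1 and HXT3 to HXT2, HXT4, HXT6 and HXT7 in TPM was 1.24, 0.82 and 1.32 in DUS KO and 1.58, 1.33 and 0.88 in WT. The groups overlapped, and the means differed by -0.14, DUS KO minus WT. This difference lay between -0.33 and 0.02 when single libraries were left out, and was above 0 without DUS KO replicate 2 or without WT replicate 1. Within the high-affinity group, the ratio of HXT6 with HXT7 to HXT2 was 2.01, 1.87 and 1.61 in DUS KO and 0.578, 1.42 and 1.53 in WT, so that the groups did not overlap. This ratio was chosen after its values were seen and was not tested.

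**Figure D3:**
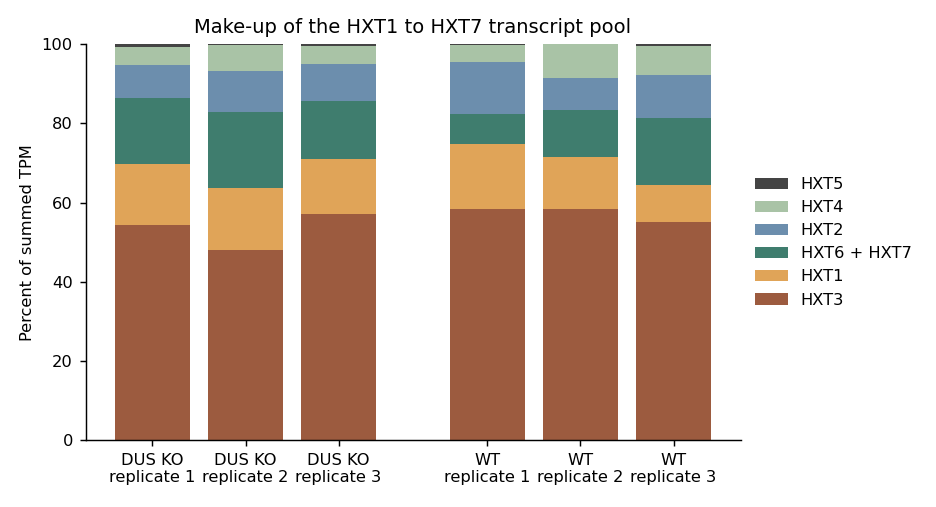
Percent of the summed TPM of HXT1 to HXT7 held by each unit (stacked from the bottom as in the legend) in the 3 DUS KO libraries and the 3 WT libraries. HXT3 holds between 47.9% and 58.4% of the pool in every library, and the band of HXT6 + HXT7 lies between 7.61% in WT replicate 1 and 19.2% in DUS KO replicate 2.

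To ask whether loss of the DUS enzymes went with other levels of these mRNAs, rounded counts were scaled between libraries with edgeR's TMM factors, which gave CPM, normalized counts per library of equal size. The quasi-likelihood test of edgeR was then run on 5883 features, with Benjamini-Hochberg adjustment over all of them. All 6 units passed its count filter. With adjusted p under 0.05, 5 features were called, 0.085% of those tested, and all 5 were lower in DUS KO (DUS1, DUS2, DUS4, LYS2 and PHO12). No member was among them. At an unadjusted p under 0.05, 3 of 6 units were lower in DUS KO (HXT2, HXT3 and HXT4) and 0 were higher, where 4.95% of all features tested were lower and 3.31% were higher. That count was 0 with total counts alone and on the TPM scales. When single libraries were left out, HXT3 alone was lower at that p without DUS KO replicate 1 or WT replicate 3, HXT2 and HXT4 without DUS KO replicate 2, HXT2 and HXT3 without DUS KO replicate 3, HXT3 and HXT4 without WT replicate 1, and all 3 without WT replicate 2. The median log2 fold change, DUS KO over WT, was -0.36 over the 6 units and -0.02 over all features. In these bulk cultures, fewer cells that express a gene and less of its RNA per cell cannot be told apart.

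HXT3 was the single unit whose groups did not overlap. It had 529, 415 and 535 CPM in DUS KO, against 689, 628 and 815 CPM in WT. All 3 DUS KO libraries lay below all 3 WT libraries, as they did for 7.68% of the features tested; for 7.84% they lay above. The log2 fold change was -0.53 (standard error 0.18, 95% interval -0.93 to -0.13), with an adjusted p of 0.466 from edgeR. HXT3 remained below 0 in 19 of 19 alternatives, at -0.61 to -0.22, with adjusted p between 0.12 and 0.975. On the TPM scale its groups overlapped.

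HXT2 had 76.9, 85.0 and 81.7 CPM in DUS KO, against 148, 84.5 and 153 CPM in WT. WT replicate 2 stood at the level of the DUS KO libraries, and the other WT libraries stood well above them. The log2 fold change was -0.67 (standard error 0.24, 95% interval -1.19 to -0.14), with an adjusted p of 0.492 from edgeR. As given above, HXT2 had whole counts in every library and shares no 50-nt window with another feature.

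HXT4 had 44.4, 57.3 and 43.1 CPM in DUS KO, against 50.8, 92.0 and 111 CPM in WT. Here WT replicate 1 lay within the DUS KO range. The log2 fold change was -0.80 (standard error 0.29, 95% interval -1.42 to -0.17), with an adjusted p of 0.492 from edgeR. With WT replicate 1 as the sole WT library, an alternative added after the data were seen because MET17 had no counts there, HXT4 was at -0.06, HXT2 at -0.88 and HXT3 at -0.49.

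HXT1 had 150, 137 and 131 CPM in DUS KO and 196, 143 and 139 CPM in WT, and the groups overlapped by WT replicates 2 and 3. The log2 fold change was -0.19 (standard error 0.20, 95% interval -0.61 to 0.24), with an adjusted p of 0.865 from edgeR, and it was at -0.01 without WT replicate 1. It turned to 0.12 on log2(TPM + 1) and to 2e-04 with total counts alone. Those scales moved the median of all features to 0.22 and 0.16, and relative to these medians HXT1 was at -0.10 and -0.16. On log2(TPM + 1), also relative to the median, HXT3 was at -0.44, HXT2 at -0.51 and HXT4 at -0.62. Of all features, 12.1%, 8.55% and 5.35% lay below HXT3, HXT2 and HXT4. HXT5 was at 0.22 and HXT6 with HXT7 at 0.20. No unit passed an unadjusted p under 0.05 from limma on that scale.

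For HXT6 with HXT7 no direction could be given. The sum had 163, 167 and 138 CPM in DUS KO, against 90.5, 127 and 248 CPM in WT. The DUS KO libraries all lay between the extremes of WT. The log2 fold change was 0.02 (standard error 0.30, 95% interval -0.64 to 0.67), with an adjusted p of 0.993 from edgeR. It depended on single libraries, at -0.26 without WT replicate 1 and at 0.53 without WT replicate 3. Without WT replicate 3 the sum passed an unadjusted but not an adjusted p under 0.05 from edgeR. It was at 0.80 with WT replicate 1 as the sole WT library, a fit that measures no spread in WT. Kept as separate features, HXT6 was at -0.04 and HXT7 at 0.02.

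HXT5 had 8.08, 2.58 and 5.94 CPM in DUS KO, against 2.75, 0.403 and 6.95 CPM in WT. The groups overlapped. The log2 fold change was 0.72 (standard error 1.03, 95% interval -1.52 to 2.95), with an adjusted p of 0.908 from edgeR. It was at 0.19 without WT replicate 2, at 0.25 without DUS KO replicate 1 and at 1.80 without WT replicate 3.

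The 7 genes together had 972, 865 and 934 CPM in DUS KO, against 1177, 1075 and 1472 CPM in WT. This sum does not depend on how reads were divided among the members. The means were 924 ± 54.4 CPM in DUS KO and 1241 ± 206 CPM in WT (SD, n = 3 each), a log2 ratio of -0.43, given as a description. HXT3 held the largest part of both means, at 493 CPM in DUS KO and 710 CPM in WT. The sum is thus not a measure apart from HXT3, and HXT5 and HXT6 with HXT7 were not below 0. On the TPM scale the sums were 194, 148 and 167 in DUS KO and 173, 148 and 236 in WT, and the groups overlapped.

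**Figure D4:**
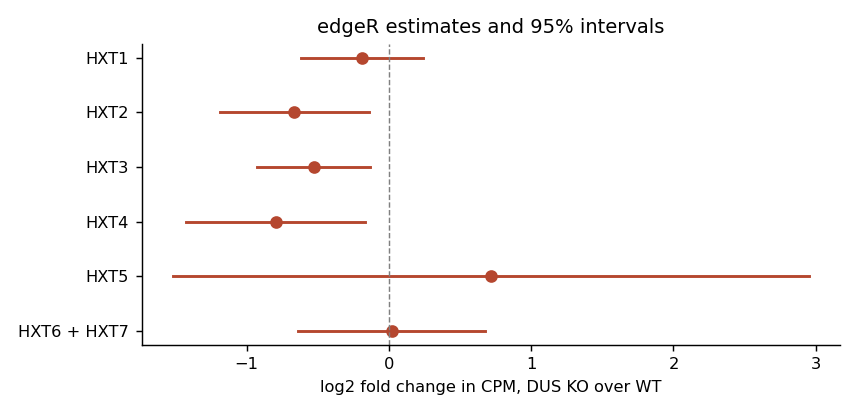
Log2 fold change in CPM, DUS KO over WT, of the 6 units (points) with 95% intervals (lines) from edgeR's fit to 3 DUS KO and 3 WT libraries. The intervals of HXT2, HXT3 and HXT4 end below 0 before adjustment, and that of HXT5 spans -1.52 to 2.95.

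The members varied unequally among replicates. In DUS KO the coefficient of variation of CPM was 5.0% for HXT2, 7.04% for HXT1, 10.1% for HXT6 with HXT7, 13.7% for HXT3, 16.3% for HXT4 and 50.2% for HXT5. In WT it was 29.8% for HXT2, 20.2% for HXT1, 53.0% for HXT6 with HXT7, 13.4% for HXT3, 36.3% for HXT4 and 98.5% for HXT5. For all units but HXT3 the DUS KO libraries thus lay closer together than the WT libraries. The share of all features for which this held was not counted, so it is not shown to be particular to these genes.

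The units did not follow one pattern across the 6 libraries. As a description over 6 libraries, which include the difference between the strains, Pearson's r of log2 CPM was highest for HXT2 and HXT3, at 0.79, and for HXT3 and HXT4, at 0.60. It was lowest for HXT1 and the sum of HXT6 and HXT7, at -0.68. The ratio of this sum to HXT1 was 1.09, 1.22 and 1.06 in DUS KO and 0.461, 0.891 and 1.79 in WT, so that WT replicates 1 and 3 stood at the extremes.

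Among 4347 features with a mean of at least 10 CPM, those whose log2 CPM followed HXT3 most closely over the 6 libraries were TDH3 (r = 0.976) and PDC1 (r = 0.974), which encode a glyceraldehyde-3-phosphate dehydrogenase and a pyruvate decarboxylase. PDC1 averaged 2017 ± 183 CPM in DUS KO and 2739 ± 318 CPM in WT (SD, n = 3 each). For HXT4 they were QCR6 (r = 0.989), a subunit of the cytochrome bc1 complex, and CLC1 (r = 0.984), the clathrin light chain. For HXT6 with HXT7 they were COX26 (r = 0.990), a protein of the cytochrome c oxidase complex, and OSH2 (r = 0.987), an oxysterol-binding protein homologue. For HXT2 they were YGR035C (r = 0.983) and CWH43 (r = 0.975), which acts on the lipids of GPI anchors. For HXT1 they were CAT5 (r = 0.988), which acts in ubiquinone synthesis, and TUM1 (r = 0.974), which acts in tRNA thiolation. For HXT5 they were SER3 (r = 0.971), an enzyme of serine synthesis, and APA1 (r = 0.969), a phosphorylase of diadenosine tetraphosphate. With 6 libraries and 4347 features compared, values of this height are a description only.

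Upstream of the genes, the sequence CGGANNA, the core bound by the repressor Rgt1, was searched on both strands in the 1000 nt before each start codon, with overlapping matches counted. HXT3 had 9 matches, HXT1 had 8, HXT5 had 4, HXT2, HXT4 and HXT6 had 3 each and HXT7 had 2. Over 5892 such regions of the genome the median was 1, 67.1% held at least 1, 11.3% held at least 3, and 2 regions, those of HXT1 and HXT3, held at least 8. A match is a sequence description and not evidence of binding.

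YDR344C, AHT1 and YHR095W are neighbours of the members. YDR344C, between HXT6 and HXT3 at 1162006 to 1162449, had 27, 19 and 0 counts in DUS KO and 2, 20 and 10 in WT. AHT1 (YHR093W), between HXT4 and HXT1, had 20, 1 and 3 counts in DUS KO and 8, 0 and 12 in WT. YHR095W, whose systematic name falls between those of HXT1 and HXT5 and which was not matched to the annotation, had 0, 1 and 0 counts in DUS KO and 5, 0 and 1 in WT. All were far below HXT1 and HXT3 and overlapped between the strains.

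Other genes of hexose transport and glucose signalling were read from lists. Of the other transporter family members, HXT8 to HXT11, HXT13 to HXT17 and the galactose permease GAL2, 4 of 10 had counts enough to be tested, and 0 were called. All 4 were above 0, with a median log2 fold change of 0.97, and the groups of each overlapped. HXT8 was at 1.14, HXT9 at 0.08 and GAL2 at 1.18, with standard errors of 1.24, 1.23 and 1.05. The direction of these genes is thus uncertain, and the shared sign was not tested. Of all features tested, 51.6% were below 0. Of the 4 tested, HXT11 had the most counts, 142, 103 and 26.5 in DUS KO and 64.8, 49.9 and 129 in WT. Its log2 fold change was 0.80 (standard error 0.41), with an adjusted p of 0.634 from edgeR. The counts of HXT9 and HXT11 were not whole, and those of HXT11 were fractional in every library, so that both values are uncertain. GAL2 had no more than 33 counts in any library.

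Of the 10 genes that sense glucose or regulate HXT transcription, 9 were tested and 0 were called, with 3 above 0 and 6 below and a median of -0.26. No gene of this list passed an unadjusted p under 0.05. Among its members, RGT2, the sensor of abundant glucose, had 74, 36 and 7 counts in DUS KO and 47, 82 and 101 in WT. These counts are not scaled for depth. In CPM its groups overlapped, and the log2 fold change was -0.51 (standard error 0.42). SNF3, the sensor of scarce glucose, had 14, 5 and 0 counts in DUS KO and 0, 4 and 24 in WT and was not tested. RGT1, the repressor of the HXT genes, was at 0.28 (standard error 0.40), and MTH1, one of its corepressors, at -0.53 (standard error 1.20).

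Of 14 genes of glucose repression 14 were tested and 0 called, with 5 above 0 and 9 below and a median of -0.19. HXK2, the hexokinase that phosphorylates incoming glucose and takes part in glucose repression, had 324, 284 and 258 CPM in DUS KO, against 403, 347 and 526 CPM in WT. Its DUS KO libraries all lay below the WT libraries, and the log2 fold change was -0.55 (standard error 0.20), with an adjusted p of 0.488 from edgeR. REG1, which directs the phosphatase Glc7 to Snf1, had 8.75, 5.80 and 14.9 CPM in DUS KO, against 16.5, 41.3 and 18.2 CPM in WT, a log2 fold change of -1.50 (standard error 0.49) with an adjusted p of 0.414 from edgeR. The list also held 2 genes whose DUS KO libraries all lay above the WT libraries, beside 2 of 14 below. Of all features tested, 7.84% lay above and 7.68% below in this way. SNF4, the activating subunit of the Snf1 kinase complex, had 88.9, 91.4 and 101 CPM in DUS KO, against 81.1, 40.1 and 86.6 CPM in WT, a log2 fold change of 0.43 (standard error 0.28) with an adjusted p of 0.727 from edgeR. ELM1, a kinase that acts on Snf1, had 7.58, 9.02 and 10.4 CPM in DUS KO, against 5.50, 3.83 and 3.59 CPM in WT, a log2 fold change of 1.04 (standard error 0.67) with an adjusted p of 0.728 from edgeR.

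Of 10 genes of the cAMP and protein kinase A pathway 10 were tested and 0 called, with 2 above 0 and 8 below and a median of -0.30. RAS1, a GTPase that activates adenylate cyclase, averaged 18.9 ± 4.80 CPM in DUS KO and 33.8 ± 6.15 CPM in WT (SD, n = 3 each), a log2 fold change of -0.78 (adjusted p = 0.552 from edgeR). BCY1, the inhibitory subunit of protein kinase A, averaged 14.0 ± 2.48 CPM in DUS KO and 24.5 ± 5.42 CPM in WT (SD, n = 3 each), a log2 fold change of -0.78 (adjusted p = 0.600 from edgeR). For both genes, 2 of 10 in the list, the DUS KO libraries all lay below the WT libraries. The same held for 7.68% of all features tested.

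Of 13 genes that glucose represses, among them SUC2 (invertase), HXK1 and GLK1, 13 were tested and 0 called, with 5 above 0 and 8 below and a median of -0.08. No gene of this list passed an unadjusted p under 0.05. SUC2 had 193, 138 and 16 counts in DUS KO and 173, 241 and 196 in WT, a log2 fold change of -0.35 (standard error 0.29).

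**Figure D5:**
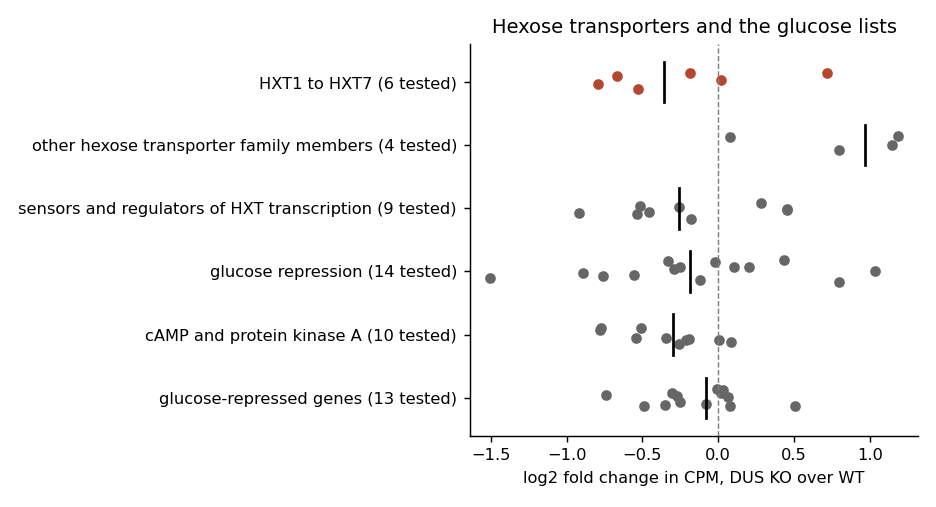
Log2 fold change in CPM, DUS KO over WT, of the units of HXT1 to HXT7 (top row, red) and of the tested genes of 5 lists of related genes (grey); vertical bars are medians and the dashed line is 0. The medians are -0.36 for HXT1 to HXT7 and 0.97 for the 4 other transporters tested, and between -0.30 and -0.08 for the other lists.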

How the data were processed

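RNA-seq tables of 3 DUS KO and 3 WT libraries were analysed, and the 6 D-seq libraries were not used here. The tables deposited by the authors hold estimated counts and TPM beside each feature's length and effective length. For sequencing in general, the methods name bbduk for adapter trimming, dedupe for removing duplicates by molecular identifier and bbmap for mapping to sacCer3. The quantification program is not named there. The deposited TPM values are normalized by effective length, 59 nt below the length for each member, and library total.

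Estimated counts were rounded to whole numbers, with HXT6 and HXT7 summed. Features were filtered with filterByExpr, which took out 728 and left 5883, and scaled by TMM (factors of 1.08, 1.09 and 1.03 in DUS KO and 0.918, 0.878 and 1.03 in WT). The strains were compared with a robust quasi-likelihood fit in edgeR 4.0.16 (R 4.3.3) and Benjamini-Hochberg adjustment at 0.05. The same fit was run on counts simulated from its own dispersions. That run checks the code and not the error rate in these libraries. The biological coefficient of variation was 37.4%. Standard errors are the size of the log2 fold change over the square root of F. Alternatives used limma 3.58.1, DESeq2 1.42.0, other scalings, filters and pseudocounts, a replicate block and leaving out libraries.

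Coding sequences were read from the RefSeq R64 genome, the assembly known as sacCer3, and 5908 of 5917 had the deposited length. DUS2 was matched by synonym. Members and gene lists were chosen with earlier results of these data known. Genes named were the members, their neighbours, the DUS genes, list genes with an unadjusted p under 0.05 and groups that do not overlap (up to 5 a list), and the 2 features most like each unit; MET17, LYS2, PHO12, SNF4, ELM1 and other list genes were named after their values were seen.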

Additional observations from a re-analysis of the deposited data

How the results depend on the processing

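HXT2, HXT3 and HXT4 were below 0 in 19 of 19 alternatives each and HXT5 above 0 in 17 of 17 (0.1947 to 1.7982). No member was called in any alternative that gave it an adjusted p. HXT5 was not tested with at least 10 counts in every library or with a mean TPM of at least 10. DESeq2 gave HXT5 no adjusted p. The direction of HXT1 turned with total counts alone (2e-04), on log2(TPM + 1) (0.1235, also among features with a mean TPM of at least 10) and on log2(TPM + 0.1) (0.1284), and it was at -0.0107 without WT replicate 1 and -0.4892 with WT replicate 1 as the sole WT library. HXT6 with HXT7 turned to -0.0039 with at least 10 counts in every library and ranged from -0.2559 to 0.7979 over 20 alternatives, from -0.2559 without WT replicate 1 to 0.5315 without WT replicate 3 among the fits that left out single libraries. HXT6 alone was at -0.0381. The number of features called was 5. It was 3 with total counts alone, 1 of 3482 tested with at least 10 counts in every library, 58 with DESeq2 (20 higher, 38 lower), 10 on log2(TPM + 1), 8 with a mean TPM of at least 10 and 22 with WT replicate 1 as the sole WT library. It was 0 with limma-voom, where 600 features passed an unadjusted p under 0.05. Leaving out single libraries gave 1 without DUS KO replicate 1 to 12 without WT replicate 1. At an unadjusted p under 0.05 instead of the adjusted one, 2 of 14 genes of the glucose repression list and 2 of 10 genes of the cAMP and protein kinase A list passed, all lower in DUS KO, where 4.95% of all features were lower and 3.31% higher. With windows of 70 nt the shared shares fell to 3.041% in HXT1, 9.358% in HXT3, 0.542% in HXT4 and 2.924% in HXT5. With a replicate block 3 features were called and HXT3 was at -0.53. The deviations of same-numbered libraries from their group means correlated at 0.0261, -0.037 and -0.0729. With 3 libraries in each group, these values cannot decide whether same-numbered libraries were paired. Without DUS KO replicate 3, the shallowest library with 656162 counts, 5 features were called.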
